A study of Mus musculus with 9 samples.

Results

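The genes described here are 9 genes of apoptotic cell clearance, taken by symbol (Mertk, Axl, Gas6, Pros1, Tgm2, Mfge8, Cd5l, Lrp1 and Timd4) from the 24061 symbols of an RNA-seq count table of bone-marrow-derived macrophages (BMDMs). BMDMs are primary mouse macrophages grown from marrow in L-cell conditioned medium, here from female C57BL/6J mice aged 8 to 10 weeks. There were 3 groups with 3 libraries each. All cells were wild-type, were differentiated for 7 days, spent 1 day without serum and were treated on day 8. Veh cells received the solvent DMSO. LPS cells received DMSO for 3 hr and then lipopolysaccharide, the bacterial ligand of TLR4, at 10 ng/mL for 2 hr. T0+LPS cells received 500 nM of T0901317 (T0), a synthetic agonist of the liver X receptors (LXRs), for 3 hr and then the same LPS with the agonist still present. No library had T0 without LPS, and the time at which Veh cells were harvested was not given in the sources used here.

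Clearance of dying cells, or efferocytosis, starts when a phagocyte recognizes phosphatidylserine exposed on the surface of an apoptotic cell. Some receptors bind the lipid directly, whereas the TAM receptors (TYRO3, AXL and MERTK) and the αv integrins bind it through soluble bridging proteins such as GAS6, protein S and MFG-E8. The engulfed cell brings cholesterol into the phagocyte, and LXRs, nuclear receptors for oxidized sterols, are known to induce Mertk in macrophages. MERTK is the main TAM receptor of resting macrophages and AXL that of inflamed ones.

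Of the 9 genes, 8 held at least 1 read and 7 passed the filter on low counts in all 3 comparisons. Relative to Veh, LPS lowered Mertk, Gas6, Cd5l and Lrp1 and raised Tgm2 (1 member higher and 4 lower at an adjusted p under 0.05 in edgeR's quasi-likelihood test). Over all genes tested, 32.9% were called higher and 31.2% lower, so a call in this comparison was common. T0 before LPS raised Mertk and Cd5l relative to LPS alone and lowered no member, against 1.35% of all genes called higher and 1.83% called lower. Relative to Veh, T0+LPS cells had 2 members higher, Mertk and Tgm2, and 4 lower, Gas6, Pros1, Cd5l and Lrp1, against 32.4% and 32.9% of all genes. Counted by libraries alone, all 3 LPS libraries were above all 3 Veh libraries for 1 member and below them for 5, and each held for 33.7% of all genes. The T0+LPS libraries were wholly above those of LPS for 3 members and wholly below for 0 (9.51% and 9.62% of all genes), and above those of Veh for 2 and below for 1 (35.6% and 33.8%). The 3 comparisons share libraries in pairs and are given side by side.

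The libraries held between 13299044 and 16467983 counted reads, and the composition (TMM) factors were 1.14 in each Veh library and between 0.931 and 0.948 in the other 6. Levels below are TMM-scaled read counts relative to library size (counts per 1e6 reads, CPM). With library totals in place of TMM, the median of all genes relative to Veh shifted from 0.00 to −0.28 on the log2 scale for LPS and from −0.03 to −0.29 for T0+LPS, and the share of calls that were lower went from 48.6% to 76.1% and from 50.4% to 76.9%. Of 8 macrophage markers, 7 were above 1 CPM in every group, and the eighth, Itgam, had no read on 3 countable bases. Their summed level was 27341 to 29591 CPM in Veh, 32782 to 34170 in LPS and 35603 to 36993 in T0+LPS. Most of this sum was Lyz2, at 19747, 21427 and 23738 CPM. With library totals Lyz2 was at 22496 CPM in Veh, 20105 in LPS and 22203 in T0+LPS. Its direction with LPS, which makes up most of the sum, therefore depended on the scaling. The markers did not move together. With LPS, Cd14 rose by 1.73 on the log2 scale and Fcgr1 fell by 0.84. Cd68 and Mrc1 were at 0.02 and −0.07 (adjusted p = 0.69 and 0.24, edgeR). The summed dendritic cell markers were at 0.232 to 0.529 CPM in Veh, 2.24 to 2.91 in LPS and 1.87 to 2.99 in T0+LPS, mostly Xcr1. The summed neutrophil markers were at 1.45 to 2.08 CPM in Veh, 3.32 to 4.00 in LPS and 2.37 to 3.58 in T0+LPS, mostly S100a8. Their part in the results was not tested. The T cell markers reached 3.37 CPM at most, and Cd3e, Siglech and Mcpt4 had no read in any library. Countable bases were 3 for S100a9, 31 for Cd8a and 0 for Clec9a, and Ly6g was not among the symbols. The sums therefore carry little information on these genes. The known LXR targets Abca1, Abcg1 and Srebf1 were higher in T0+LPS than in LPS by 1.47, 2.09 and 1.30 on the log2 scale. The LPS-inducible Il1b, Tnf and Cxcl1 were higher in LPS than in Veh by 9.34, 6.08 and 10.24. The 3 Veh libraries together held 90, 4 and 38 reads of these genes, so the sizes of the rises rest on low Veh counts. In such bulk RNA, fewer cells of a type and less RNA per cell cannot be told apart.

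**Figure D1:**
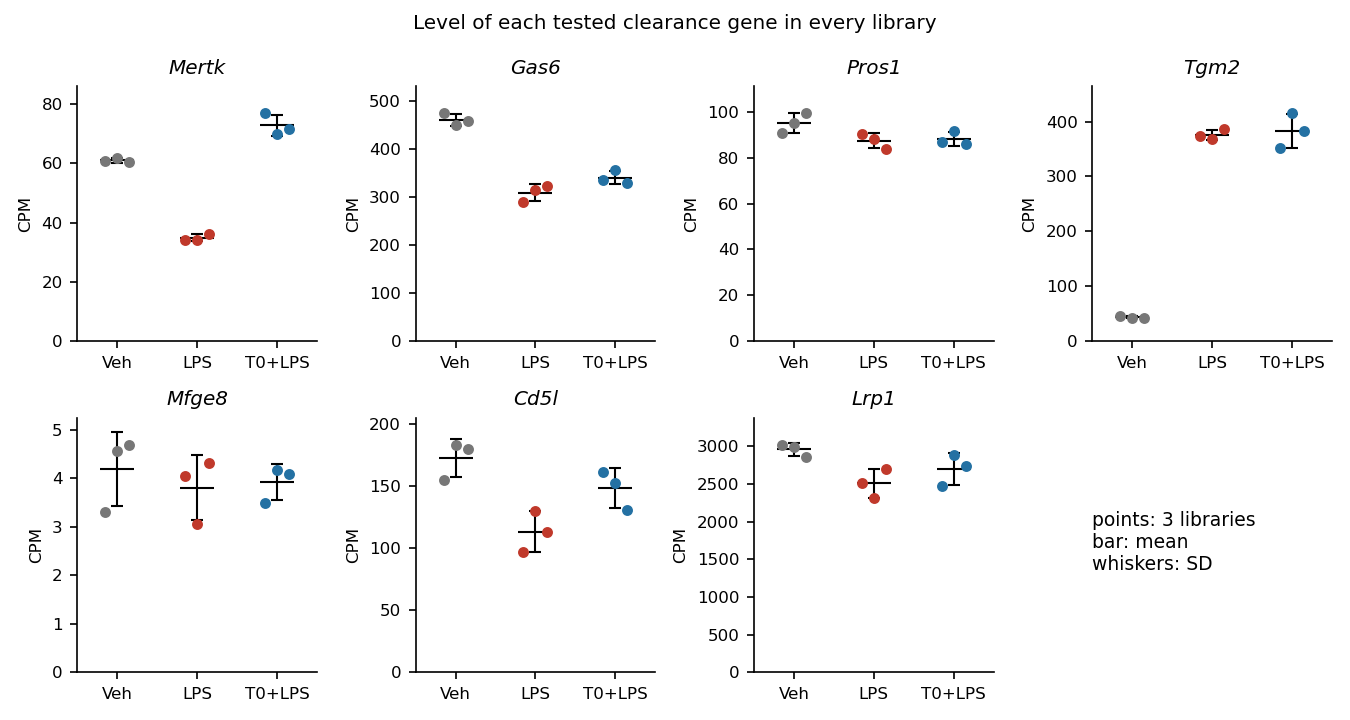
Level of each measurable clearance gene, in TMM-scaled CPM on linear axes from 0, in the 3 Veh, 3 LPS and 3 T0+LPS libraries (points, with the group mean and SD). Mertk fell from about 61.0 to 34.8 CPM with LPS and stood at 72.8 CPM with T0 before LPS, whereas Tgm2 rose to 376 CPM with LPS and was at 383 CPM with T0 added.

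Mertk, the receptor tyrosine kinase through which macrophages take up cells coated with GAS6 or protein S, lies on the plus strand of mm10 at chr2:128698997-128802188 and was counted on all 3555 exonic bases of its 19 exons. Its level was 60.7, 61.9 and 60.4 CPM in the Veh libraries. It was 34.2, 34.0 and 36.1 CPM in the LPS libraries and 76.9, 70.0 and 71.5 CPM in the T0+LPS libraries. The 3 groups did not overlap: LPS was lowest and T0+LPS highest. The log2 fold change of LPS against Veh was −0.81 (standard error, SE, 0.05; edgeR adjusted p = 1.5e-09), a 1.75-fold lower level. T0+LPS exceeded LPS by a log2 fold change of 1.06 (SE 0.06, 95% interval 0.93 to 1.20, adjusted p = 2.9e-08, edgeR), or 2.09-fold, which ranked Mertk 17th by size among the 126 genes called higher. In all 14 alternative analyses of this contrast the value stayed between 1.03 and 1.09 and was called. T0+LPS also exceeded Veh, by 0.23 (SE 0.05, adjusted p = 0.00056, edgeR), but with library totals as the scale this difference was −0.03 (adjusted p = 0.58), so its direction depended on the scaling.

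The sequence upstream of Mertk is shown with that of Cd5l, because these were the members called higher with T0. LXRs bind, with a retinoid X receptor, direct repeats of a hexamer spaced by 4 bases (DR4). Both runs give the 250 bases before the RefSeq start on GRCm38.p6, the patch release of mm10, on the plus strand. They span chr2:128698665-128698914 for Mertk, whose count row begins 82 bases after the RefSeq start, and chr3:87357631-87357880 for Cd5l. Capitals mark the match found, which is the reverse complement of GGGTCA at −219 to −214 from the Mertk start.
Mertk: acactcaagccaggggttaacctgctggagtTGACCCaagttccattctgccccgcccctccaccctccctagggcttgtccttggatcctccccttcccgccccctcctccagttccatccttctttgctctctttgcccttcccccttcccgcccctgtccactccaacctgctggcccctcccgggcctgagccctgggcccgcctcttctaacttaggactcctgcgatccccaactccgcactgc
Cd5l: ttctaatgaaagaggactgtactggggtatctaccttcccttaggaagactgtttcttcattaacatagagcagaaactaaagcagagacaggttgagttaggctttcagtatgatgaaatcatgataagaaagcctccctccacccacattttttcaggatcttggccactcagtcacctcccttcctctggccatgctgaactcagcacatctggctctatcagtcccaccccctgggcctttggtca
Each motif was searched on both strands of these 250 bases. The DR4 repeat, AGGTCA followed in the same direction by AGGTCA after 4 bases, contains the single hexamer and occurred before none of the 8 members with an entry and in 0.0152% of all 32851 upstream sequences. The single hexamer AGGTCA occurred before Timd4 only, and in 14.0% of all sequences. GGGTCA occurred before Mertk only, and in 11.6%. The AP-1 motif TGANTCA and the NF-κB (κB) motif occurred before none of the 8, and in 6.75% and 3.90% of all sequences. Only the exact DR4 repeat was searched, and repeats with altered hexamers were not. As this repeat was so rare in all sequences, its absence before 8 members carries little information. These matches are letters in a short window and do not show where a factor bound.

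Axl and Timd4 could not be compared. Axl, the TAM receptor of activated macrophages on the minus strand at chr7:25756500-25788733, had 3 rows in the table that shared every base with one another, and it was listed at 0 in all 9 libraries. The table left out reads that fell on bases common to more than 1 row, as the 6696 rows without an unshared base held 0 reads in all, so the 0 carries no information on Axl. Timd4 encodes TIM-4, a direct phosphatidylserine receptor of resident macrophages, and lies at chr11:46810799-46844333 on the plus strand. All of its 2175 bases were countable, yet it had 10 reads in the whole series. No Veh library held a read, the LPS libraries held 2, 0 and 2, and the T0+LPS libraries 2, 1 and 3. These counts do not exceed the floor of 3 reads per library, equal to between 0.160 and 0.238 CPM, so no fold is given.

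The ligands of the TAM receptors are GAS6, which activates all of them, and protein S, the product of Pros1, which is also an anticoagulant. Gas6, on the minus strand at chr8:13465374-13494535, was at 474, 449 and 459 CPM in Veh. It was at 288, 315 and 323 CPM in LPS and at 335, 356 and 328 CPM in T0+LPS. Every LPS and T0+LPS library was below every Veh library, and every T0+LPS library was above every LPS library. With library totals the T0+LPS and LPS libraries overlapped: LPS replicate 3 was at 306.3 CPM and T0+LPS replicate 3 at 305.6 CPM. LPS lowered Gas6 by a log2 fold change of −0.57 (SE 0.05, adjusted p = 1.9e-08, edgeR). The difference between T0+LPS and LPS was 0.14 (SE 0.05, 95% interval 0.03 to 0.25) and did not pass the threshold (adjusted p = 0.23, edgeR). Such a separation of all 3 libraries upward was seen for 9.51% of the genes tested in that comparison. T0+LPS was below Veh by −0.46 (adjusted p = 3.2e-08, edgeR).

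Pros1, on the plus strand at chr16:62854334-62929340, was at 90.7, 95.0 and 99.4 CPM in Veh. Its level was 90.3, 88.4 and 83.9 CPM in LPS and 86.9, 91.9 and 86.1 CPM in T0+LPS. The lowest Veh library was just above the highest LPS library, and the T0+LPS libraries overlapped with both groups. LPS differed from Veh by −0.12 (SE 0.05, adjusted p = 0.057, edgeR), which was past the threshold in 4 of 14 alternatives and reached −0.40 with library totals. T0+LPS differed from LPS by 0.01 (95% interval −0.10 to 0.13, adjusted p = 0.95). T0+LPS was below Veh by −0.13 (adjusted p = 0.028, edgeR), a call that was lost in 7 of 14 alternatives.

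The ratio of Gas6 to Pros1 within a library does not depend on the scaling between libraries. Per exonic kilobase it was 6.59, 5.96 and 5.82 in Veh, 4.03, 4.49 and 4.86 in LPS, and 4.87, 4.88 and 4.81 in T0+LPS. Each library held more Gas6 than Pros1, and the Veh ratios were the highest. The mean log2 ratio was 2.61 ± 0.09 (SD, n = 3) in Veh, 2.15 ± 0.14 (SD, n = 3) in LPS and 2.28 ± 0.01 (SD, n = 3) in T0+LPS. The difference was −0.46 for LPS against Veh and −0.33 for T0+LPS against Veh (p = 0.1 each, exact 2-sided permutation test, the smallest p that 3 against 3 libraries allow). It was 0.13 for T0+LPS against LPS (exact p = 0.2, the same test).

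Mfge8 encodes MFG-E8, which bridges phosphatidylserine to αv integrins. Its 2 rows, on the minus strand within chr7:79133768-79149060, left 111 of 2126 bases unshared, or 5.22%. All 526 reads therefore came from 1 coding exon, the fourth of the annotated transcript that contains it, at chr7:79143278-79143388 of mm10. GENCODE places this exon in 1 of 10 transcripts of the gene. It is shown in the sense direction, with no part in capitals, because it is the only stretch of Mfge8 that was measured.
Mfge8: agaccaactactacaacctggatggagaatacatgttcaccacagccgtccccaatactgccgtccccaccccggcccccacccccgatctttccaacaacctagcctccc
On these bases the libraries held between 42 and 81 reads. The level was 3.31, 4.56 and 4.69 CPM in Veh, 4.04, 3.06 and 4.32 CPM in LPS, and 3.50, 4.18 and 4.09 CPM in T0+LPS. All 3 groups overlapped. LPS differed from Veh by −0.13 on the log2 scale (95% interval −0.53 to 0.27) and T0+LPS from LPS by 0.05 (95% interval −0.34 to 0.44), with adjusted p values of 0.56 and 0.95 from edgeR. Transcripts of Mfge8 without this exon were not measured. The intervals were wide and included 0, so differences of either sign within them were not excluded.

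Tgm2 encodes transglutaminase 2, which crosslinks proteins and acts with integrin β3 and MFG-E8 at the phagocytic portal of macrophages. On the minus strand at chr2:158116405-158146392, it was at 45.0, 41.8 and 42.7 CPM in Veh. The level was 373, 368 and 386 CPM in LPS and 352, 415 and 382 CPM in T0+LPS. Both LPS-treated groups stood far above Veh and overlapped with each other. LPS against Veh gave a log2 fold change of 3.12 (SE 0.05, adjusted p = 9.1e-18, edgeR), an 8.71-fold rise that ranked 202nd among 3148 genes called higher. T0+LPS differed from LPS by 0.03 (95% interval −0.09 to 0.15, adjusted p = 0.90, edgeR) and from Veh by 3.13 (adjusted p = 1.3e-16, edgeR).

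Cd5l encodes AIM, a secreted scavenger-receptor-domain protein of tissue macrophages that binds dead cells and debris and protects macrophages from apoptosis. On the plus strand at chr3:87357881-87371074, it was at 155, 184 and 180 CPM in Veh. It was at 97.1, 130 and 113 CPM in LPS and at 162, 153 and 131 CPM in T0+LPS. The LPS libraries were the lowest, and the highest of them was just below the lowest T0+LPS library. LPS lowered Cd5l by −0.60 (SE 0.08, adjusted p = 9.3e-06, edgeR). T0+LPS was higher than LPS by 0.39 (SE 0.09, 95% interval 0.20 to 0.58, adjusted p = 0.028, edgeR), a 1.31-fold difference that ranked 69th of the 126 genes called higher. That call was lost without LPS replicate 1 (0.29, adjusted p = 0.16), without T0+LPS replicate 1 (0.33, adjusted p = 0.092) and without T0+LPS replicate 2 (0.37, adjusted p = 0.11). T0+LPS was below Veh by −0.24 (adjusted p = 0.0082, edgeR) with overlapping libraries, which became −0.14 (adjusted p = 0.077) without T0+LPS replicate 3 and was not called by DESeq2 (−0.22, adjusted p = 0.11).

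Lrp1 encodes a large endocytic receptor that, with calreticulin on the dying cell, takes part in engulfment. On the minus strand at chr10:127538158-127621148, its 89 exons spanned 14891 exonic bases and collected 363337 reads over the series. The level was 3020, 2996 and 2864 CPM in Veh, 2513, 2321 and 2703 CPM in LPS, and 2476, 2889 and 2737 CPM in T0+LPS. All LPS libraries lay below all Veh libraries, and the T0+LPS libraries overlapped with both groups. LPS lowered Lrp1 by −0.23 (SE 0.05, adjusted p = 0.00066, edgeR), or 1.18-fold. T0+LPS differed from LPS by 0.10 (95% interval −0.03 to 0.23, adjusted p = 0.50, edgeR). It was below Veh by −0.15 (adjusted p = 0.0091, edgeR), and without T0+LPS replicate 1 by −0.08 (adjusted p = 0.055).

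**Figure D2:**
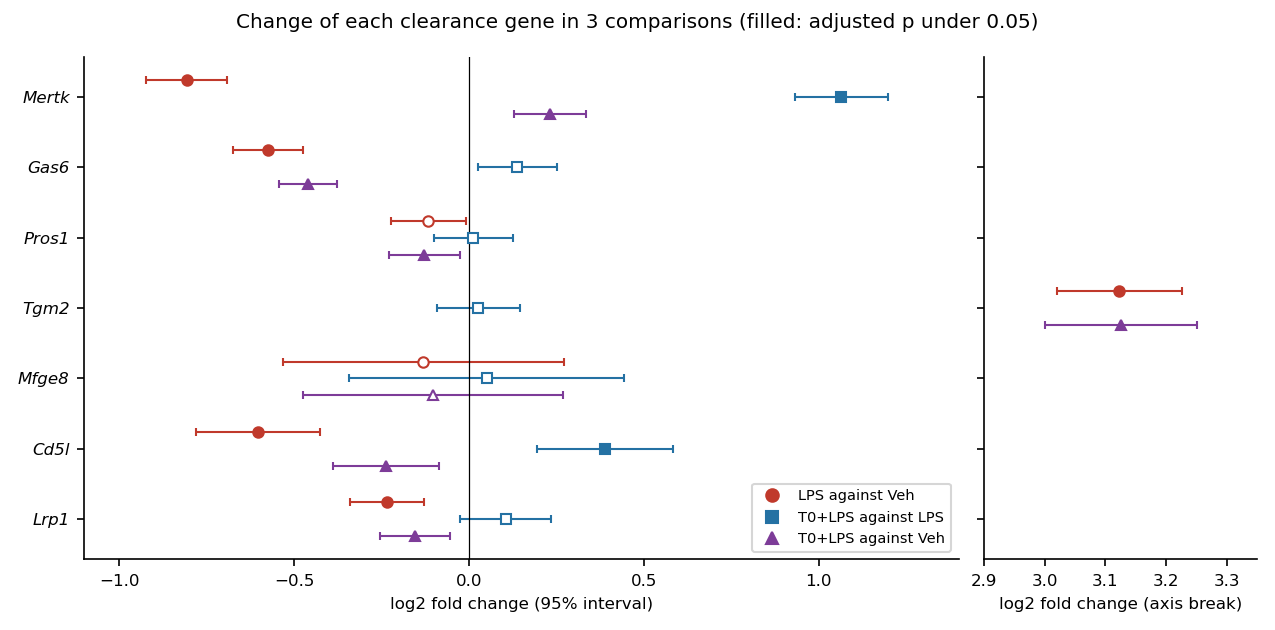
Log2 fold change of each tested clearance gene in the 3 comparisons, with 95% intervals from the edgeR fits, filled points for an adjusted p under 0.05 and a break in the axis before Tgm2. With T0 before LPS, the intervals of Mertk (0.93 to 1.20) and Cd5l (0.20 to 0.58) and that of Gas6 (0.03 to 0.25) lay above 0, and those of Pros1, Tgm2, Mfge8 and Lrp1 included 0.

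Levels of different genes were compared as CPM per kilobase of unshared exonic bases. In Veh the order was Lrp1 at 199, Gas6 at 178, Cd5l at 84.8, Mfge8 at 37.7, Pros1 at 29.1, Mertk at 17.2 and Tgm2 at 12.2 CPM per kilobase. In LPS it was Lrp1 at 169, Gas6 at 119, Tgm2 at 106, Cd5l at 55.7, Mfge8 at 34.3, Pros1 at 26.8 and Mertk at 9.79. Tgm2 thus moved from the last to the third place, and Mertk to the last. In T0+LPS the order was that of LPS, with Mertk at 20.5 and Pros1 at 27.0 CPM per kilobase. The libraries of neighbouring genes did not overlap, except those of Mfge8 and Pros1 in Veh and in LPS. The Mfge8 value covers only transcripts with the counted exon, annotated in 1 of 10, so it is not the level of the whole gene. Because Mfge8 rests on 111 bases, its place changed most when the full row length was used instead, and 3 of 7 members in Veh and 4 of 7 in LPS and in T0+LPS then kept their rank.

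**Figure D3:**
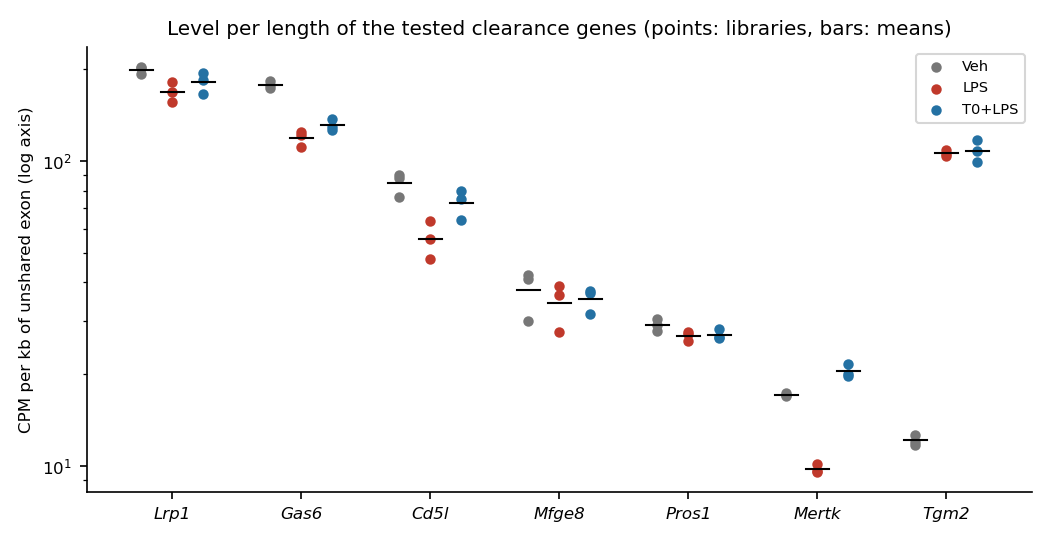
Levels of the 7 tested clearance genes in CPM per kilobase of unshared exonic bases on a log axis, for Veh, LPS and T0+LPS (points are libraries and bars are group means). Lrp1 and Gas6 led in each group, Tgm2 rose from 12.2 to 106 with LPS, and Mertk was lowest in LPS at 9.79.

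The wider pathway was read from a list of 48 genes grouped by role, of which 9 held no read. In all, 14 were tested in no comparison, and 9 of these had under 10% of their longest row unshared, among them Itgb5, Vav1 and Cd36. Tyro3, the remaining TAM receptor, had 2 reads, counted on 1204 of 4452 bases. Of 32 list genes tested for LPS against Veh, 14 were higher, 10 lower and 8 not called, with a median log2 fold change of 0.07 against 0.00 for all genes. Over all genes, 32.9% were called higher and 31.2% lower, so the share of list genes called lower was near the background. With library totals the counts were 9 higher and 18 lower, beside 1696 higher and 5408 lower of all 9559 genes tested. The largest rises were those of Msr1 at 2.43, a scavenger receptor, and P2ry2 at 2.20, a receptor for nucleotides released by dying cells. The largest falls were those of Cd300lb at −1.92, a phosphatidylserine receptor, and S1pr1 at −1.40, a receptor for sphingosine-1-phosphate. Of the other direct receptors, Stab1 fell by 0.64 (adjusted p = 7.8e-08, edgeR), and Stab2 was at −0.39 (adjusted p = 0.10). Of the nuclear receptors, Pparg and Ppard fell by 1.00 and 0.61, and Rxra was at −0.22 (adjusted p = 0.57). Receptors that work with bridging proteins had 3 of 5 higher and 2 lower, and the engulfment machinery had 5 of 7 higher and 1 lower. The lower one, Elmo2, had 186 reads in the series and lost its call in 3 of 13 alternatives. With library totals, Elmo1 and Dock1, which act together upstream of RAC1 in engulfment, turned from 0.22 to −0.06 each (adjusted p = 0.40 and 0.34, edgeR). Rac1, not called at 0.07, turned to −0.21 and was called lower (adjusted p = 0.00014, edgeR). Msr1, P2ry2, Cd300lb, S1pr1, Stab1, Pparg and Ppard kept their signs with this scaling.

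For T0+LPS against LPS, 33 list genes were tested: 4 were higher, 2 lower and 27 not called, with a median of 0.03 against 0.00 for all genes, of which 1.35% were called higher and 1.83% lower. S1pr1, at 22.8 ± 2.20 CPM (SD, n = 3) in LPS and 31.1 ± 1.72 (SD, n = 3) in T0+LPS, rose by 0.45 (adjusted p = 0.0064, edgeR). Cd300lb, at 211 ± 10.2 CPM and 283 ± 32.1 CPM (SD, n = 3 each), rose by 0.42 (adjusted p = 0.0025, edgeR). Both had fallen with LPS, and both remained below Veh. The other rises were those of C1qc and C1qb, chains of complement C1q, which opsonizes apoptotic cells, at 0.28 and 0.21. C1qa, the third chain, was at 0.21 and not called (adjusted p = 0.053, edgeR), but was called in 7 of 13 alternatives. Thbs1, which encodes the bridging protein thrombospondin-1, fell by 0.52 (adjusted p = 0.016), and Cx3cr1, the receptor for the find-me signal fractalkine, fell by 0.51 (adjusted p = 0.018). Among these calls, Cd300lb held in each of 6 fits that left out a library. S1pr1 and C1qc lost theirs without LPS replicate 1 (adjusted p = 0.053 and 0.058) and Thbs1 without T0+LPS replicate 3 (adjusted p = 0.072) and in DESeq2, Cx3cr1 lost its call in 3 of the 6 and C1qb in 4. None of the 7 engulfment genes and none of the 5 cargo-processing genes was called. Stab1 and Stab2 were at 0.01 and 0.39 (adjusted p = 0.96 and 0.48). Adam17, the protease that sheds MERTK, was at 0.39 (95% interval −0.42 to 1.20, adjusted p = 0.73), counted on 99 of 4508 bases. Nr1h3 (LXRα), Ppard and Pparg were at 0.60, 0.08 and 0.06 (adjusted p = 0.48, 0.78 and 0.93), Nr1h3 with 97 reads in the series on 315 of 1955 bases and Pparg on 342 of 1857.

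For T0+LPS against Veh, 16 of 33 tested list genes were higher and 10 lower, with a median of 0.15 against −0.03 for all genes, of which 32.4% were called higher and 32.9% lower, so the share of list genes called lower was near the background here too. With library totals there were 10 higher and 15 lower, beside 1661 higher and 5520 lower of all 9636 genes tested. Msr1 at 2.40 and P2ry2 at 2.07 again led the rises, and Cd300lb at −1.53 and S1pr1 at −0.98 the falls. Stab1 was lower by −0.65 (adjusted p = 6.9e-10, edgeR) and Stab2 was at −0.03 (adjusted p = 0.90). Of the nuclear receptors, Nr1h3 was higher by 1.41 (adjusted p = 0.0019, edgeR) and was called in all 13 alternatives. It rested on 21 reads in the 3 Veh libraries and 47 in the 3 T0+LPS libraries. Pparg and Ppard were lower by −0.97 and −0.56. Rxra was at −0.76 (adjusted p = 0.13, edgeR), with 101 reads in the series on 459 of 5267 bases. Nr1h2 (LXRβ) had 4 of 2022 bases countable and was not tested. These comparisons share libraries with those above, so their values are not independent of them.

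**Figure D4:**
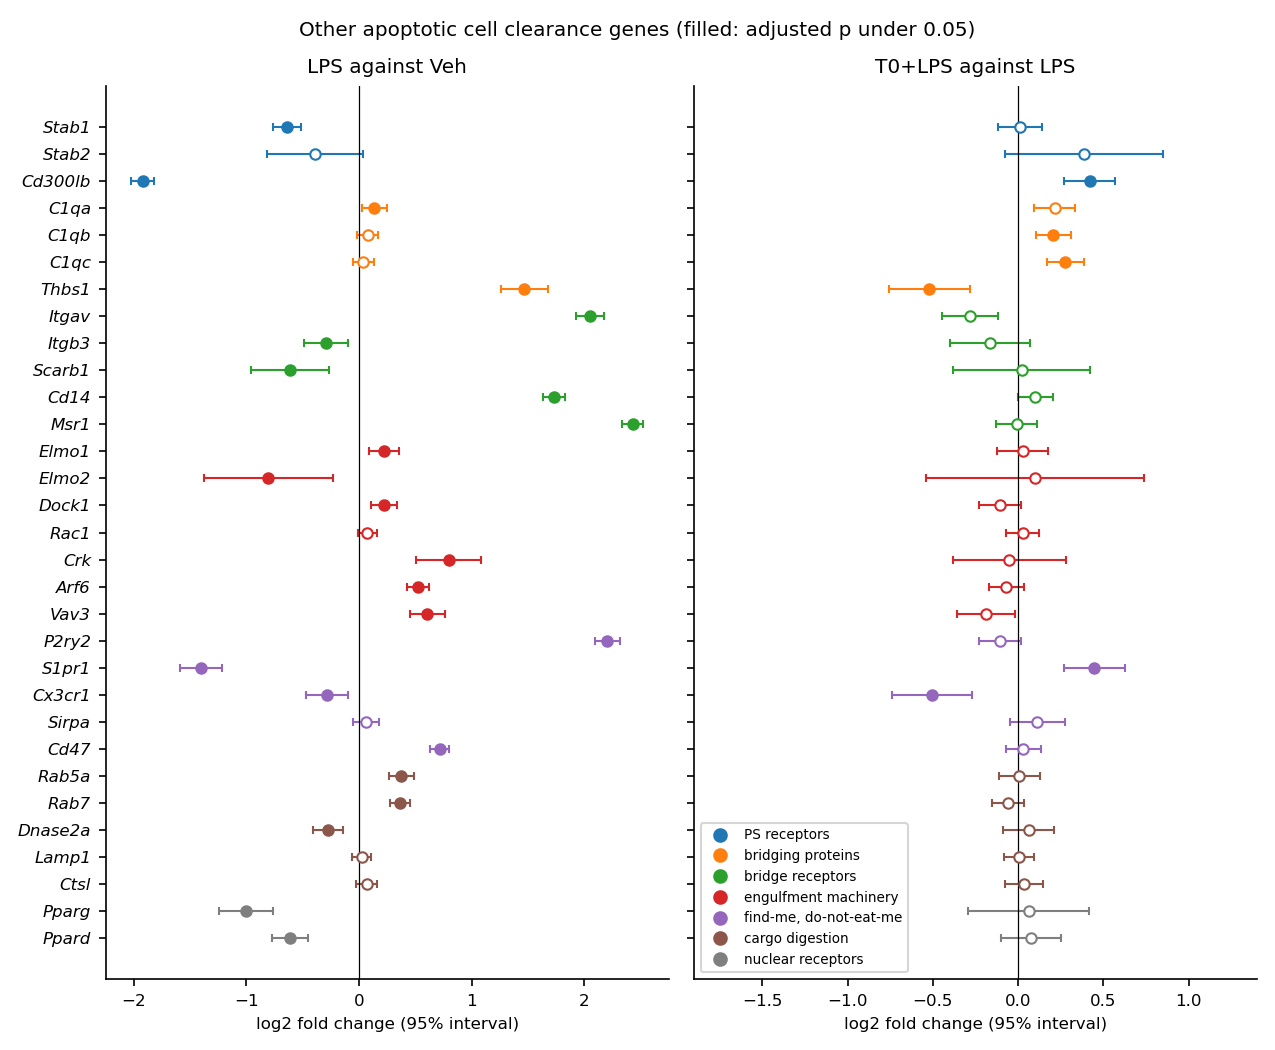
Log2 fold changes of the list genes tested in both comparisons, grouped by role, for LPS against Veh and for T0+LPS against LPS on separate axes, with 95% intervals and filled points for an adjusted p under 0.05 in edgeR. LPS moved genes between −1.92 (Cd300lb) and 2.43 (Msr1), whereas most values with T0 lay close to 0 and 4 higher and 2 lower genes were called.

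The genes whose levels followed Mertk most closely were sought among 2404 symbols whose mean was 5 CPM or more and whose group means spanned at least 0.5 on the log2 scale. Over the 9 libraries, Pearson's r of log2 CPM with Mertk was 0.98 for Abcg1, 0.97 for Pcyox1, 0.97 for Eepd1, 0.91 for Fam3c and 0.90 for Osgin1. These values describe 9 libraries that fall into 3 treatment groups and share the same scaling. Abcg1, which encodes a cholesterol efflux transporter, was at 909 ± 3.54 CPM in Veh, 381 ± 11.4 in LPS and 1622 ± 46.4 in T0+LPS (SD, n = 3 each). Eepd1, which encodes a nuclease-domain protein, was at 89.0 ± 2.61, 38.9 ± 3.81 and 91.4 ± 6.88 CPM (SD, n = 3 each). Pcyox1, a prenylcysteine oxidase gene, was at 295, 222 and 360 CPM, Fam3c at 52.2, 43.6 and 67.8 CPM and Osgin1 at 27.1, 14.7 and 28.2 CPM in the same order. Because these genes were selected for following Mertk over the same libraries, a fall with LPS and a rise with T0 came with the selection, and the values describe them only. All 5 were lower with LPS than in Veh, by −0.26 (Fam3c) to −1.25 (Abcg1), and higher in T0+LPS than in LPS, by 0.63 (Fam3c) to 2.09 (Abcg1). They differed in the third comparison: Abcg1, Fam3c and Pcyox1 exceeded Veh by 0.81, 0.35 and 0.27, whereas Eepd1 and Osgin1 were each at 0.02 (adjusted p = 0.80 and 0.88, edgeR). With library totals these became 0.55 for Abcg1, 0.09 for Fam3c, 0.00 for Pcyox1, −0.25 for Eepd1 and −0.24 for Osgin1, of which Abcg1 was called higher and Eepd1 lower (adjusted p = 6.6e-10 and 0.00065, edgeR).

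**Figure D5:**
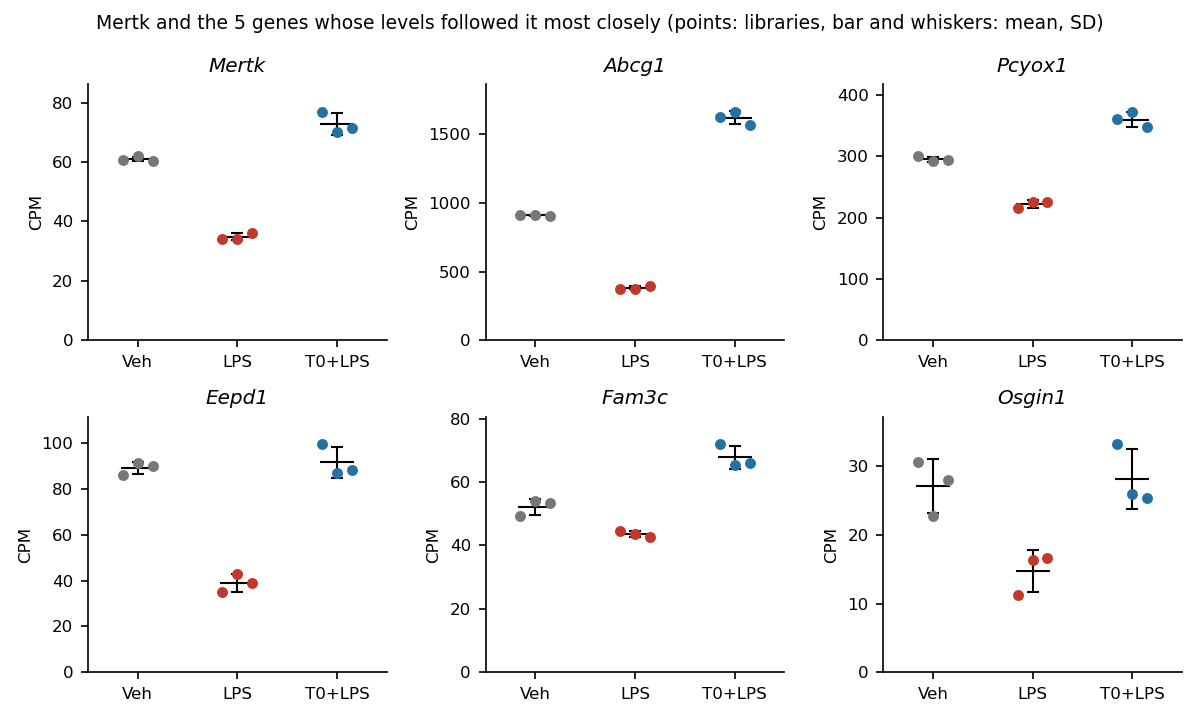
Levels in TMM-scaled CPM, on linear axes from 0, of Mertk and of the 5 genes most correlated with it over the 9 libraries (points are libraries, with group mean and SD). Each gene was lowest in LPS, and Abcg1 showed the widest span, from 381 CPM in LPS to 1622 CPM in T0+LPS.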

How the data were processed

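RNA from 3 Veh, 3 LPS and 3 T0+LPS cultures of BMDMs was poly(A)-selected and sequenced. The authors removed adaptors (cutadapt), mapped reads against the mm10 transcriptome (HISAT2) and assigned them to RefSeq rows (featureCounts), and they deposited whole-number read counts without normalization. Deposited columns and tables of the authors' own fold changes and p-values were not used, and the chromatin data were not analysed here.

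Counts of the 32850 rows were summed to 24061 symbols. Each pair of groups was fitted alone with edgeR 4.0.16 (R 4.3.3): filterByExpr, TMM factors, quasi-likelihood test, Benjamini-Hochberg adjustment over all genes tested, called at 0.05. That left 9559, 9348 and 9636 genes for LPS against Veh, T0+LPS against LPS and T0+LPS against Veh. DESeq2 1.42.0, limma 3.58.1 (voom), other scalings, no filter, all 9 libraries, a replicate block and fits without each library were alternatives. The fits were tested on simulated data. Likeness to Mertk used log2(CPM + 0.5). Locations are those of the count rows on mm10; upstream sequences are from RefSeq (GRCm38.p6), where 8 of 9 members had an entry.

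The members and lists were chosen with earlier results of these data known. Named genes are all members, the 2 largest called rises and falls of the pathway list in each comparison, list genes of roles with few tested genes, and the 5 symbols most correlated with Mertk. Others were named after their values were seen. These were C1qa, C1qb and C1qc for T0+LPS against LPS, Elmo1, Elmo2, Dock1 and Rac1 for LPS against Veh, and Itgb5, Vav1, Cd36 and Tyro3 among untested genes. Library totals were 13299044 to 16467983 reads, and the floor of 3 reads covers counting error only. Replicate pairs differed beyond sampling noise (chi-square per degree of freedom 2.63 to 6.67). No pair therefore looked like the same library entered again, and all were kept. The authors counted replicates as separately differentiated cultures, and the labels do not say whether these came from separate mice. The p-values set group differences against the spread between these libraries, which may not include that between mice.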

Additional observations from a re-analysis of the deposited data

How the results depend on the processing

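For T0+LPS against LPS, Mertk kept its direction and call in all 14 alternatives. Library totals in place of TMM gave 1696 genes higher and 5408 lower for LPS against Veh (3148 and 2981 with TMM), and 1661 higher and 5520 lower for T0+LPS against Veh (3121 and 3172), where 1 member instead of 2 was higher because the log2 fold change of Mertk turned to −0.0304. Without a filter, 225 genes were higher and 285 lower for T0+LPS against LPS (126 and 171 with it). DESeq2 called 2 members lower in T0+LPS than in Veh, against 4, and lost Pros1 and Cd5l; the cause was not tested. Leaving out 1 library at a time gave 59 to 167 genes higher and 82 to 191 lower for T0+LPS against LPS, with the lowest counts without LPS replicate 1, and 1 to 2 members higher. For T0+LPS against Veh it gave 2 to 4 members lower, with 2 called without T0+LPS replicate 1 and without T0+LPS replicate 3. Members near 0 changed sign without 1 library: for T0+LPS against LPS, Pros1 ranged from −0.0150 (without T0+LPS replicate 2; −0.0143 without LPS replicate 3) to 0.0344, Tgm2 from −0.0327 (without T0+LPS replicate 2) to 0.0861 and Mfge8 from −0.0905 (without LPS replicate 2) to 0.155, and for LPS against Veh Mfge8 ranged from −0.284 to 0.00024 (without LPS replicate 2). With the deposited row length, 3, 4 and 4 of 7 members in Veh, LPS and T0+LPS kept their rank. Deviations of same-numbered libraries correlated at −0.115 to 0.118, which shows no strong shared deviation. With 3 libraries a group, this cannot exclude that the numbers pair the samples. With the replicate number as a block, 155 genes were higher and 230 lower for T0+LPS against LPS, 3053 and 2926 for LPS against Veh, and 3078 and 3124 for T0+LPS against Veh, and no member gained or lost a call. The ratio of Axl to Mertk could not be computed. Depth limits Mfge8, at 42 to 81 reads a library, and Timd4.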
